A study of Mus musculus with 5 samples.

Results

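The 10 LIM homeobox genes Lhx1 to Lhx6, Lhx8, Lhx9, Isl1 and Isl2 were examined for peaks of the Polycomb mark H2AK119ub and of RYBP in mouse embryonic stem cells. A gene entered by its symbol, and a peak was counted when it shared at least 1 bp with the gene's body or the 2 kb on either side of it in mm10. All 10 symbols were found among the 21631 protein-coding genes tested. The cells were of the embryonic stem line MPI-II, cultured on feeder cells in serum with LIF and with the MEK inhibitor PD0325901 and a GSK3 inhibitor. The 3 groups were H2AK119ub in wild-type cells, H2AK119ub in DDX5 knockout cells and RYBP in wild-type cells. The knockout was a monoclonal line in which exon 2 of Ddx5, a gene for a DEAD-box RNA helicase, had been targeted by nickase Cas9 with guides in pairs, so genotype and clone cannot be told apart. RYBP was precipitated with an antibody sold under its alias DEDAF. Each group had 1 library, so no difference below has a replicate check and no test between genotypes could be made. Peak lists give no expression level, so markers of embryonic stem cells, of feeder cells and of the targeted gene could not be checked from them.

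LIM homeobox proteins carry a pair of LIM zinc-finger domains that bind other proteins and a homeodomain that binds DNA. The LIM domains recruit the cofactor Ldb1, which joins LIM proteins into larger assemblies, and combinations of these factors specify neuron types, the pituitary, the kidney, the heart and the gonads. In embryonic stem cells most such lineage regulators are silent and held by Polycomb. Polycomb repressive complex 1 places ubiquitin on a lysine near the end of histone H2A, and its variant forms contain RYBP or the related YAF2. Vertebrate LIM homeobox genes fall into paralog pairs, and the genes are described here as Lhx1 with Lhx5, Lhx2 with Lhx9, Lhx3 with Lhx4, Lhx6 with Lhx8, and Isl1 with Isl2.

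The sequences before 4 start sites are shown because they cover 3 different states of the start, RYBP alone, H2AK119ub alone and both together, and, in the last, a start rich and a start poor in CG. Each run is the 250 bases before a RefSeq start site of GRCm38.p6 and lies just outside the gene body. It is read 5′ to 3′ on the gene's strand, with CG dinucleotides in capitals. A start counted as covered when its first base lay in a peak. Isl1 (chr13:116309689-116309938, minus strand) had RYBP at its start and no H2AK119ub in either genotype. The first start of Lhx3 (chr2:26208250-26208499, minus strand) lay in H2AK119ub of both genotypes with no RYBP. The starts of Lhx1 (chr11:84525535-84525784, minus strand) and Lhx8 (chr3:154330561-154330810, minus strand) lay in peaks of all 3 libraries.
Isl1: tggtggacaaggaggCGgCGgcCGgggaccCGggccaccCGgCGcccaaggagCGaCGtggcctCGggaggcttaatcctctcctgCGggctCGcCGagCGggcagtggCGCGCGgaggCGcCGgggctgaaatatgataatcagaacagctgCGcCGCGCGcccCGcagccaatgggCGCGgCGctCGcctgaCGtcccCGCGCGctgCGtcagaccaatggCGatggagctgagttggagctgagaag
Lhx3 first start: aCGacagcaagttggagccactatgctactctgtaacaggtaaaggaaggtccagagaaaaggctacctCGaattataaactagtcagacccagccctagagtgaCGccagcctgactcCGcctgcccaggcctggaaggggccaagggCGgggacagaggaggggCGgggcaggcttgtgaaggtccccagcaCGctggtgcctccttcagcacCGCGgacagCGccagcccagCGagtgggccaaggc
Lhx1: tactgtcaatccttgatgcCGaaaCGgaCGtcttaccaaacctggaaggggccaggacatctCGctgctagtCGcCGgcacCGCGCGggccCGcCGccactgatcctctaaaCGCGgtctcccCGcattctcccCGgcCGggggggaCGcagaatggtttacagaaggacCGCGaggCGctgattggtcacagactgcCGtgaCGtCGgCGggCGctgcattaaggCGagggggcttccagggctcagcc
Lhx8: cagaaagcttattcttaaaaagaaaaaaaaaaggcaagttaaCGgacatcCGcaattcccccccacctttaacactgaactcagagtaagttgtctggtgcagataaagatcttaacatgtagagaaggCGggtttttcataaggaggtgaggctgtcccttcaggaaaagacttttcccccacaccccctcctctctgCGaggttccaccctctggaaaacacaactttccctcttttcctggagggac
These runs held 33 CG dinucleotides before Isl1, 11 before Lhx3, 26 before Lhx1 and 4 before Lhx8. The Isl1 run is among the richest: 5.18% of 21045 start sites of protein-coding genes had at least as many. Of the 4, the start with RYBP and no mark had the most CG, while the starts with both differed widely. The other member starts with RYBP and no wild-type H2AK119ub, at Lhx4 and the second of Lhx2, held 14 and 24, fewer than Lhx1.

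The wild-type H2AK119ub list held 24235 peaks over 45.9 Mb, the knockout list 20994 peaks over 30.6 Mb and the RYBP list 9564 peaks over 17.2 Mb. Their median widths were 1360, 1083 and 1634 bp. Read depth is unknown, and a library with weaker enrichment gives fewer and narrower peaks. The part of this in the values below was not tested.

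Every one of the 10 genes carried H2AK119ub in both genotypes and RYBP in wild-type cells. The share of all protein-coding genes with a peak in the same kind of window was 27.9% for wild-type H2AK119ub, 23.6% for knockout H2AK119ub and 37.6% for RYBP. H2AK119ub of both genotypes stood at 10 of 10 members and at 20.7% of all genes, and peaks of all 3 libraries at 10 of 10 members and at 15.7% of all genes. No member was marked in the wild type alone, where 7.20% of all genes were, and none in the knockout alone, where 3.00% were. The members' windows were not longer than usual, with a median of 21536.5 bp against 21329 bp over all genes.

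The marked stretches were long. Wild-type peaks covered 2003 to 22034 bp per gene, with a median of 10495.5 bp, against a median of 3141 bp over all marked genes. Knockout peaks covered 2556 to 20426 bp, with a median of 9670 bp against 2407 bp. RYBP covered 1737 to 9604 bp, with a median of 6881 bp against 1773 bp over all genes with RYBP. At least 5 kb of H2AK119ub stood at 9 of 10 members in each genotype, against 9.64% of all genes for wild-type and 6.47% for knockout cells. Isl1 was the exception in both.

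**Figure D1:**
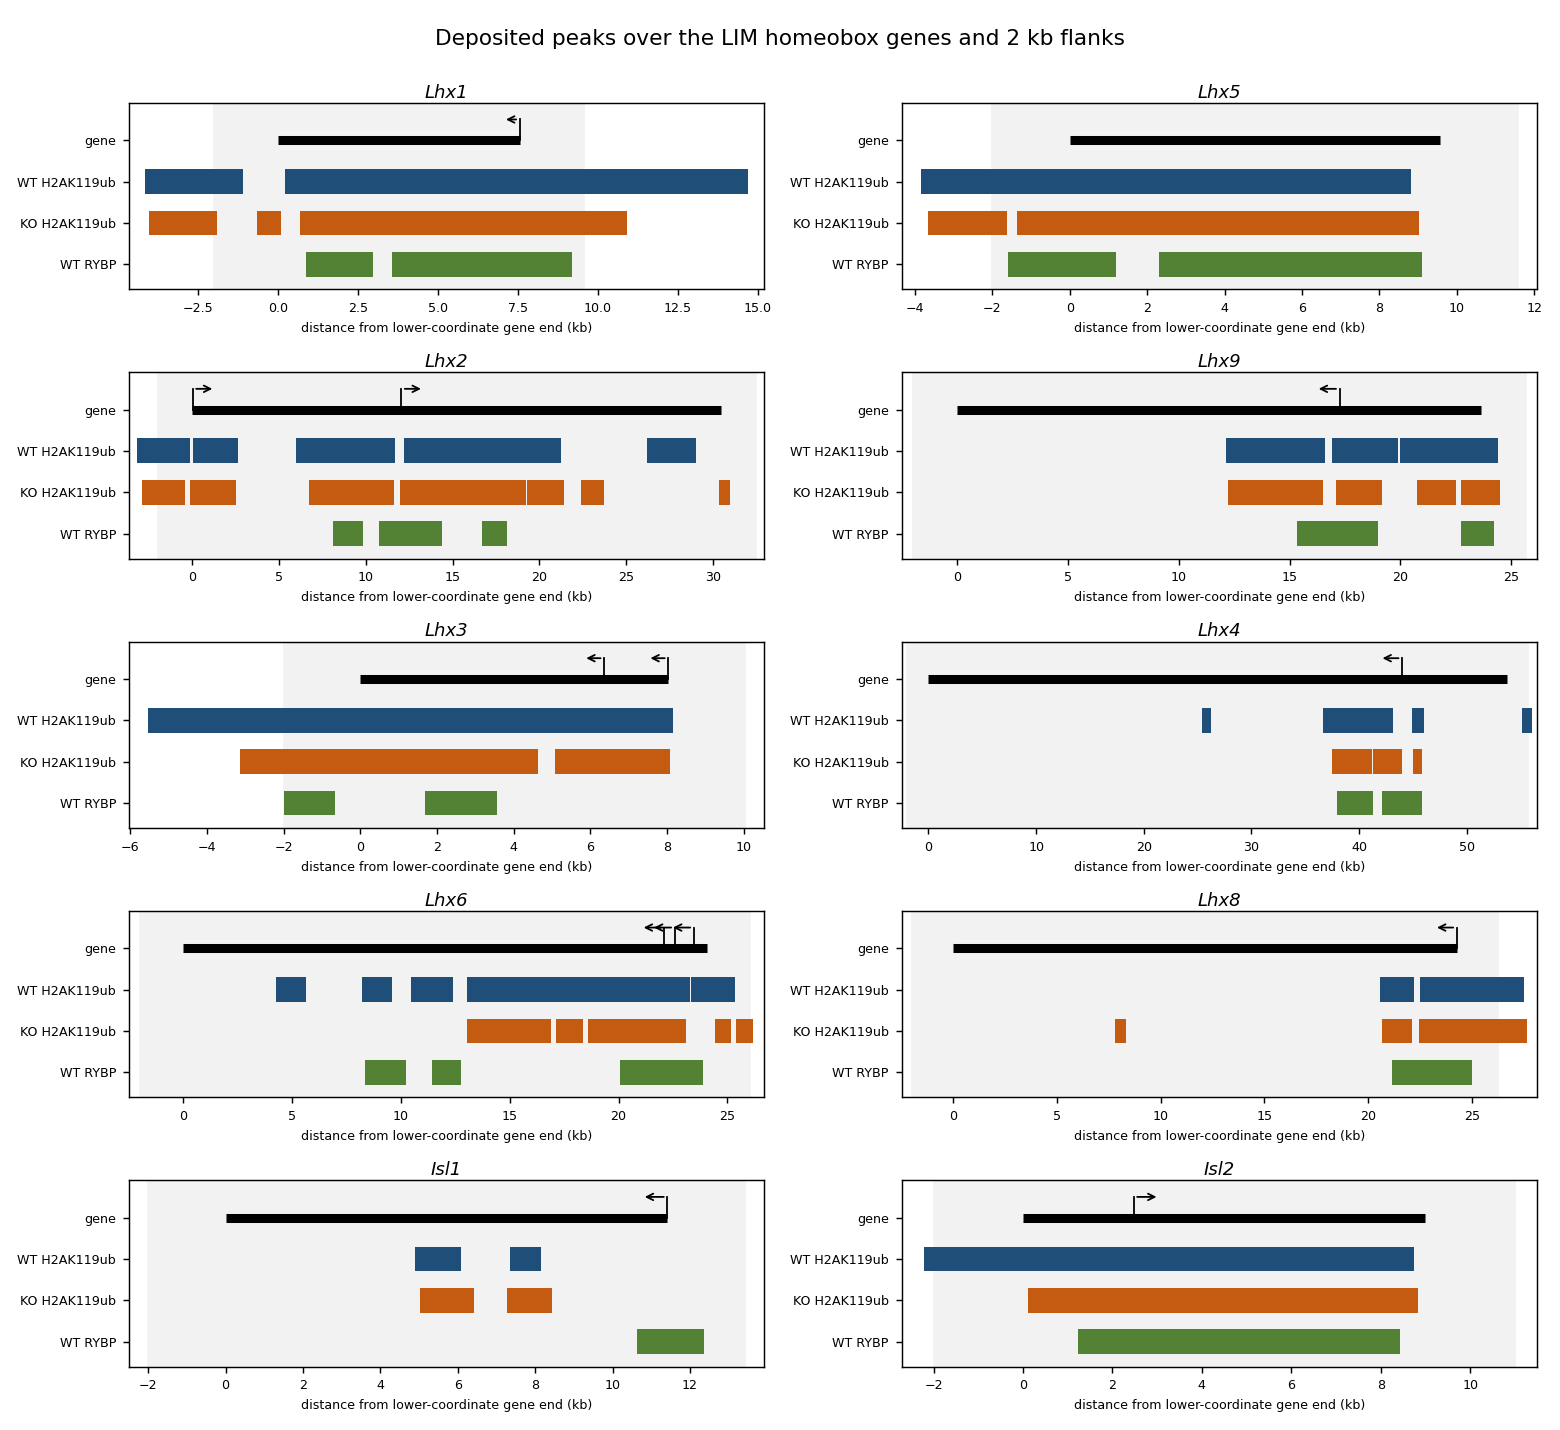
Peaks of the 3 libraries at each of the 10 genes, 1 panel per gene. The horizontal axis is the distance in kb from the gene's lower-coordinate end, and black bars are gene bodies. Arrows mark RefSeq start sites and their direction (none is drawn for Lhx5). Grey marks the gene body with 2 kb flanks, and coloured bars are peaks drawn to scale. At 9 genes RYBP overlaps wild-type H2AK119ub, in part or wholly, and at Isl1 they lie apart.

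The order of the genes by wild-type covered length was Lhx2, Lhx6, Lhx9, Lhx5, Isl2, Lhx1, Lhx3, Lhx4, Lhx8 and Isl1. With 1 library per group no spread is known, so neighbours in this order are not shown to differ. Lhx9, Lhx5, Isl2, Lhx1, Lhx3 and Lhx4 lay close together, from 11886 down to 9156 bp. The order in the knockout began with Lhx2, Lhx6 and Lhx5 and ended with Lhx4, Lhx8 and Isl1.

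**Figure D2:**
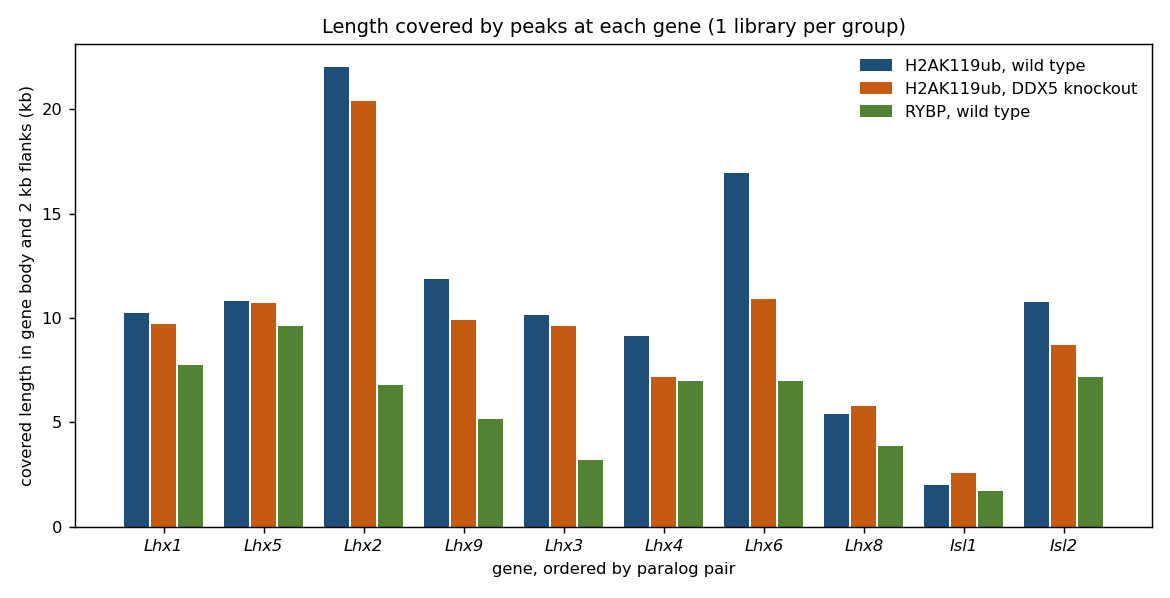
Covered length in kb within the gene body and 2 kb flanks (vertical axis, from 0) for each gene (horizontal axis) in the 3 libraries, with no error bars because each group has 1 library. Lhx2 stands highest for H2AK119ub and Isl1 lowest in all 3 libraries, and the gap between wild type and knockout is widest at Lhx6.

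H2AK119ub at these genes was largely kept in the knockout. The 10 windows together held 109391 bp of wild-type H2AK119ub and 95629 bp of knockout H2AK119ub, a ratio of 0.87, where all protein-coding genes gave 0.67. Knockout peaks covered 81.6% of the wild-type length at the members and 49.2% over all genes. The median ratio of knockout to wild-type length was 0.94 over the members and 0.72 over the 4467 genes marked in both genotypes. Covered length was lower by at least 1.5 times at 1 of 10 members, Lhx6, against 43.5% of all genes marked in both, and higher by that much at 0 of 10, against 6.45%. Isl1 and Lhx8 had more covered length in the knockout, 2 of 10 against 21.2%, and the direction at Lhx8 turned with the processing, to a ratio of 0.91 with flanks of 5 kb. The count itself was 5 of 10 with peaks merged within 2 kb and 1 of 10 with peaks of 1 kb or more.

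Genes with long wild-type coverage were also set beside the members. These genes were picked by wild-type length, the divisor of the ratio, and the members by name, with earlier results of these data known. The part of length in the ratios was therefore not tested. At the 2086 genes with at least 5 kb, wild-type peaks covered a median of 38.5% of the window, against 63.9% at such members. Among the 2043 genes marked in both genotypes with at least 5 kb in the wild type, a comparison chosen after seeing the data, the median ratio was 0.68 and 48.6% were lower by at least 1.5 times, against 1 of the 9 members of that kind, whose median was 0.93. Among these longer stretches 0 of 9 members and 1.57% of genes were higher by that fold, and 1 of 9 members and 11.6% of genes had more length in the knockout. The knockout library covered less on every chromosome that holds a member, with ratios of 0.53 to 0.78. These are descriptions of 1 pair of libraries.

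**Figure D3:**
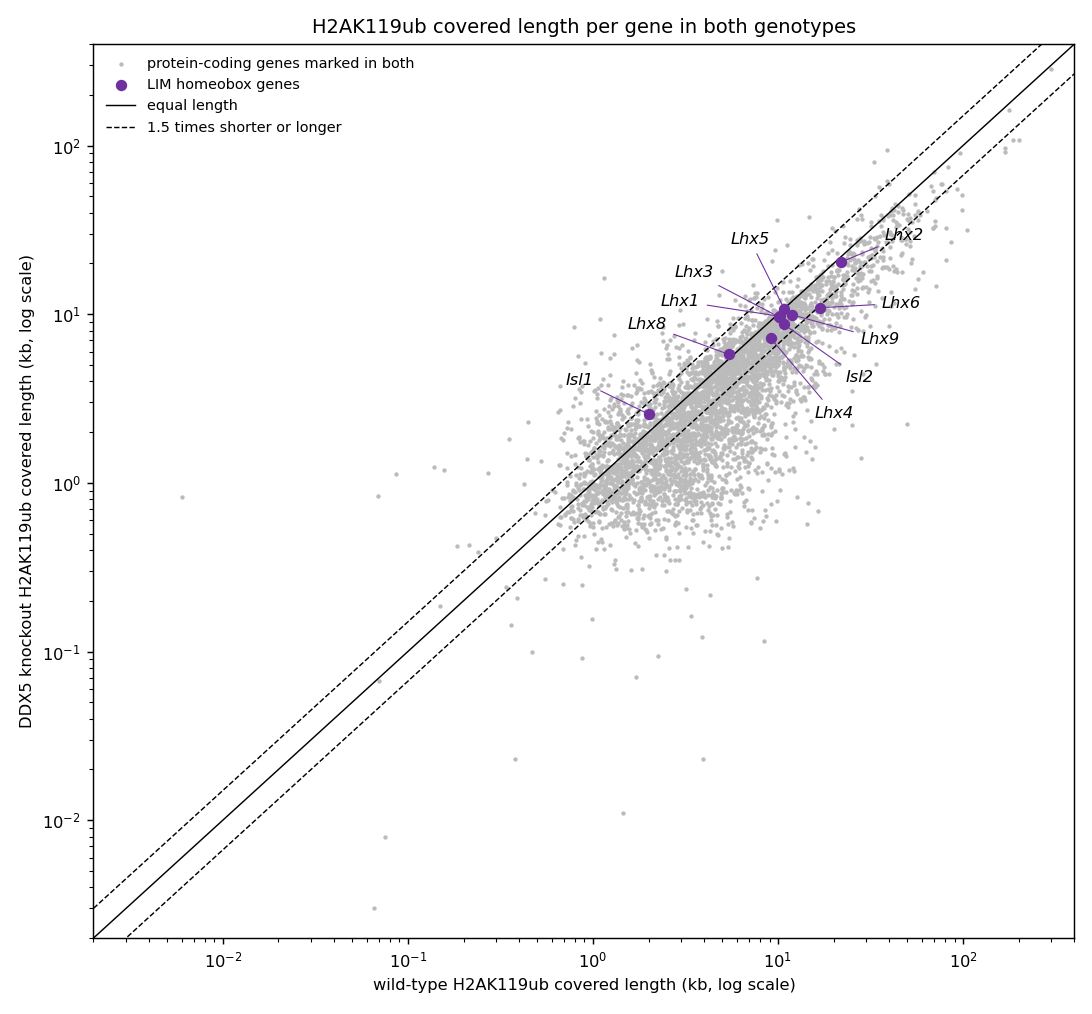
Covered length of H2AK119ub per gene in the wild type (horizontal, kb, log scale) and the DDX5 knockout (vertical, kb, log scale) for 4467 protein-coding genes marked in both (grey) and the 10 LIM homeobox genes (purple). The solid line is equal length and the dashed lines are 1.5 times shorter or longer; Lhx6 lies below the lower dashed line and the other 9 genes lie between the dashed lines.

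Within the windows and their edges lay 27 wild-type H2AK119ub peaks, 33 knockout peaks and 19 RYBP peaks. Of the wild-type peaks, 20 of 27 overlapped a knockout peak, where 48.9% (Wilson 95% interval 48.3% to 49.6%, counting error only) did over the whole list. The 7 that did not were 532 to 2843 bp wide and lay at Lhx2, Lhx4 and Lhx6, and the 20 that did had a median width of 4437 bp. Of the knockout peaks, 28 of 33 overlapped a wild-type peak, against 66.5% (65.8% to 67.1%) of the whole list, and the other 5 were 541 to 1316 bp wide. The peaks of 1 genotype alone were thus narrower than the median of the shared ones. At least 10 kb wide were 5 of the 27 wild-type peaks, against 0.800% of that list, and 2 of the 33 knockout peaks, against 0.314%. A wide peak meets a gene window more readily than a narrow one, which these shares do not adjust for.

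Lhx1 (gene ID 16869, chromosome 11, 84517975 to 84525534) acts in the head organizer and in the kidney. Its wild-type H2AK119ub covered 10241 bp, or 88.6% of the window, knockout H2AK119ub 9710 bp and RYBP 7737 bp. The main wild-type peak, 14462 bp from 84518210 to 84532671, was the widest at any of the 10 genes and ran past the start of Lhx1 over 7012 bp of Lhx1os, a long noncoding RNA gene that begins next to it. The knockout peak there, 10196 bp from 84518675 to 84528870, covered 3211 bp of Lhx1os. On that side both peaks ran past the edge of the window, so this difference is not in the covered length above. All of the RYBP at Lhx1 lay inside H2AK119ub of both genotypes.

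Lhx5 (gene ID 16873, chromosome 5, 120431886 to 120441457), a regulator of forebrain development, had the most RYBP of the 10 genes. RYBP covered 9604 bp, or 70.8% of the window, in peaks of 2814 and 6790 bp. Wild-type H2AK119ub covered 10811 bp, as 1 peak of 12657 bp, and knockout H2AK119ub 10743 bp, as peaks of 2039 and 10375 bp. These peaks also reached the noncoding genes Gm27199 and Gm31976. Of the wild-type length, 97.4% was also covered in the knockout, the highest share of the 10. The pair Lhx1 and Lhx5 held the widest knockout peaks at any member. The ratio for all of chromosome 5 was 0.53, the lowest among the members' chromosomes.

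Lhx2 (gene ID 16870, chromosome 2, 38339271 to 38369737), which is required for the eye and the cerebral cortex, had the longest coverage. Wild-type H2AK119ub covered 22034 bp in 5 peaks and knockout H2AK119ub 20426 bp in 7 peaks. RYBP covered 6788 bp in 3 peaks, all within the middle of the gene, of which 1 of 3615 bp (38350054 to 38353668) held the second start site. A wild-type peak of 2843 bp near the far end, from 38365475 to 38368317, had no knockout counterpart, and knockout peaks of 1316 and 602 bp on either side of it had none in the wild type. At the first start the wild-type mark began 49 bp away, so the call at that base rests on a small shift of a peak edge. At the second start the wild-type mark stopped on either side, 185 bp away at the nearest, whereas a knockout peak from 38351249 to 38358526 held the start. Both flanking wild-type peaks overlapped the RYBP peak. The noncoding genes Gm46736, Gm27197 and Gm13584 also lie under peaks of this window.

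Lhx9 (gene ID 16876, chromosome 1, 138825186 to 138848839), the paralog of Lhx2 and a gene needed to form the gonads, was marked over its 5′ part. Wild-type peaks covered 11886 bp, knockout peaks 9932 bp and RYBP 5150 bp, and no peak of any library lay in the last 12 kb of the gene. The start site that RefSeq lists, at 138842444, lies inside the body, which reaches 6395 bp farther, and had peaks of all 3 libraries. The stretch from 138845167 to 138849585, 1 wild-type peak of 4419 bp, was split in the knockout into peaks of 1773 and 1772 bp. Of the wild-type length 82.9% was kept.

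Lhx3 (gene ID 16871, chromosome 2, 26200212 to 26208249), a factor of pituitary and motor neuron development, had the shortest RYBP coverage of the 9 genes where both overlapped. A single wild-type peak of 13687 bp, from 26194676 to 26208362, gave 10151 bp in the window, or 84.3% of it. The knockout covered 9630 bp in peaks of 7763 and 2995 bp, and every one of those base pairs was also covered in the wild type. At the lower-coordinate end both marks ran past the window, and the knockout peak began only at 26197084. That difference is not in the covered length, and with flanks of 5 kb the ratio was 0.82 in place of 0.95. RYBP covered 3217 bp in peaks of 1316 and 1901 bp, the nearer of them 4459 bp from the first start site and 2785 bp from the second. Both starts lay in H2AK119ub of both genotypes.

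Lhx4 (gene ID 16872, chromosome 1, 155698031 to 155751726), which acts beside Lhx3 in the pituitary, is the longest of the 10 genes, and only 15.9% of its window was covered in the wild type. Wild-type peaks covered 9156 bp, knockout peaks 7194 bp and RYBP 6980 bp. Wild-type peaks of 889, 532 and 921 bp had no knockout counterpart, and the peak of 5981 bp kept 5562 bp. The start site at 155742027 lay in a RYBP peak of 3669 bp and in no H2AK119ub peak. The nearest knockout peak ended 18 bp from it, so here too a peak edge close to the start decides the call, in the knockout. The nearest wild-type peak was farther, 847 bp from it. Within 2 kb of the start the knockout covered more, with a ratio of 1.22 against 0.79 over the whole window.

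Lhx6 (gene ID 16874, chromosome 2, 36081950 to 36105992), which specifies interneurons of the cerebral cortex, differed most between the genotypes. Wild-type H2AK119ub covered 16955 bp, knockout H2AK119ub 10930 bp and RYBP 6974 bp. The ratio was 0.64, and 60.7% of the wild-type length was kept, the lowest share of the 10. Wild-type peaks of 1375, 1362 and 1924 bp toward the 3′ end had no knockout peak, although RYBP peaks of 1871 and 1309 bp overlapped 2 of them. The wild-type peak of 10266 bp over the 5′ part was covered by 4 knockout peaks over 9564 bp. At the first start site, 36105408, the knockout peak ended 378 bp away, and at the other 2 starts all 3 libraries had a peak. The ratio stayed below 1 under every alternative run but was 0.70 with peaks merged within 2 kb and 0.72 within 2 kb of the starts, so Lhx6 was past the fold of 1.5 in 5 of 7 alternatives.

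Lhx8 (gene ID 16875, chromosome 3, 154306288 to 154330560), the paralog of Lhx6 and a factor of forebrain cholinergic neurons and oocytes, had similar H2AK119ub in both libraries. Wild-type peaks covered 5404 bp, knockout peaks 5789 bp and RYBP 3860 bp, and 96.4% of the wild-type length was kept. The start site lay in H2AK119ub of both genotypes, in peaks of 5019 and 5175 bp that also covered 2985 and 3102 bp of the noncoding gene AI606473. The knockout had a further peak of 541 bp in the gene body. Without that peak, as with peaks of at least 1 kb, the ratio was 0.97 in place of 1.07. The 250 bases before the start held 4 CG dinucleotides, as many as before Lhx9, and 71.6% of all start sites had at least as many.

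Isl1 (gene ID 16392, chromosome 13, 116298270 to 116309688), which is needed for motor neurons, pancreatic endocrine cells and the second heart field, had the least of each signal. Wild-type H2AK119ub covered 2003 bp in peaks of 1199 and 804 bp, and knockout H2AK119ub 2556 bp in peaks of 1393 and 1163 bp at the same places in the gene body. The knockout peaks covered 92.7% of the wild-type length. RYBP covered 1737 bp in 1 peak over the start site, from 116308908 to 116310644, and shared no base with H2AK119ub of either genotype. The wild-type mark began 3272 bp and the knockout mark 2976 bp from the start. Isl1 was the only one of the 10 genes whose RYBP lay wholly outside H2AK119ub. With peaks of at least 1 kb the wild-type peak of 804 bp dropped out and the ratio was 2.13 in place of 1.28; with peaks merged within 2 kb it was 1.05.

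Isl2 (gene ID 104360, chromosome 9, 55538677 to 55547667), a factor of motor neurons and retinal ganglion cells, had several times the coverage of its paralog in each library. Its wild-type H2AK119ub was 1 peak of 10966 bp, from 55536461 to 55547426, its knockout H2AK119ub 1 peak of 8719 bp, from 55538789 to 55547507, and its RYBP 1 peak of 7188 bp, from 55539909 to 55547096. The lengths in the window were 10750, 8719 and 7188 bp. The RYBP peak lay entirely within both H2AK119ub peaks. The RefSeq start site, 55541149, lies inside the body, 2472 bp from its edge, and in peaks of all 3 libraries. The wild-type length absent from the knockout, 2112 bp, lay before the gene body and at its first bases. Counted over the gene body alone the ratio was 1.00 in place of 0.81.

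RYBP and H2AK119ub overlapped at 9 of 10 members in wild-type cells, against 16.4% of all genes. Among genes with at least 5 kb of the wild-type mark, the comparison chosen after seeing the data, it was 9 of 9 members against 77.6% of 2086 genes. Of the 59235 bp of RYBP in the 10 windows, 89.9% lay inside wild-type H2AK119ub, where all genes gave 36.6%, the genes with at least 5 kb 73.3%, Dlx 96.5%, Pax 86.0% and Nkx 87.0%. Most of the distance from all genes was thus shared with other genes under long stretches of the mark. All of it did at Lhx1, Lhx3 and Isl2, 75.3% at Lhx4 and none at Isl1. The reverse share, H2AK119ub that lay in RYBP, varied more: it was 86.1% at Lhx5, 75.5% at Lhx1, 66.9% at Isl2, 66.0% at Lhx8, 57.4% at Lhx4, 40.8% at Lhx9, 34.9% at Lhx6, 31.7% at Lhx3 and 28.2% at Lhx2. Within the windows the mark therefore reached well beyond RYBP at Lhx2, Lhx3 and Lhx6 and little beyond it at Lhx5. These shares are cut at the window edge, which some peaks crossed. Of the whole wild-type peak of 12657 bp at Lhx5, 9310 bp lay in RYBP, and of that of 14462 bp at Lhx1, 7737 bp.

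Wild-type H2AK119ub inside RYBP peaks was kept over 92.9% of its length in the knockout and that outside over 71.0%, where all genes gave 73.3% and 44.0% and genes with at least 5 kb of the mark 81.0% and 47.8%. The share was higher inside than outside at 7 of the 9 members with both, against 60.0% of such genes overall and 76.2% of those with at least 5 kb of the mark, so the members' count lay near that of genes with similar coverage. Pooled over Dlx genes the shares were 85.3% inside and 91.3% outside, over Pax 93.5% and 54.2%, and over Nkx 84.9% and 63.9%. Of genes with both, the share was higher inside at 3 of 5 Dlx, 6 of 7 Pax and 7 of 10 Nkx genes. Of the partner transcription factor genes listed below, it was so at 5 of 11. Among the members the difference was widest at Lhx4 (95.4% against 34.6%), Isl2 (100% against 40.7%) and Lhx1 (100% against 48.9%). At Lhx5 (97.3% against 98.2%) and Lhx8 (96.8% against 95.6%) the shares were nearly equal. Lhx6 went the other way, with 50.7% inside and 66.0% outside. Its RYBP peaks of 1871 and 1309 bp, away from the starts, met no knockout H2AK119ub. In its RYBP peak over the starts, 2999 of 3743 bp of the mark were kept. Within 2 kb of the starts the share was higher inside RYBP at 4 members, Lhx6 among them, where RYBP overlapped the mark at 7. The same was not computed over all genes, so this count has no background. At Lhx1, Lhx8 and Isl2 knockout peaks covered all of the mark near the start, so the shares inside and outside were equal. RYBP was not profiled in the knockout, so its own change is not known.

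**Figure D4:**
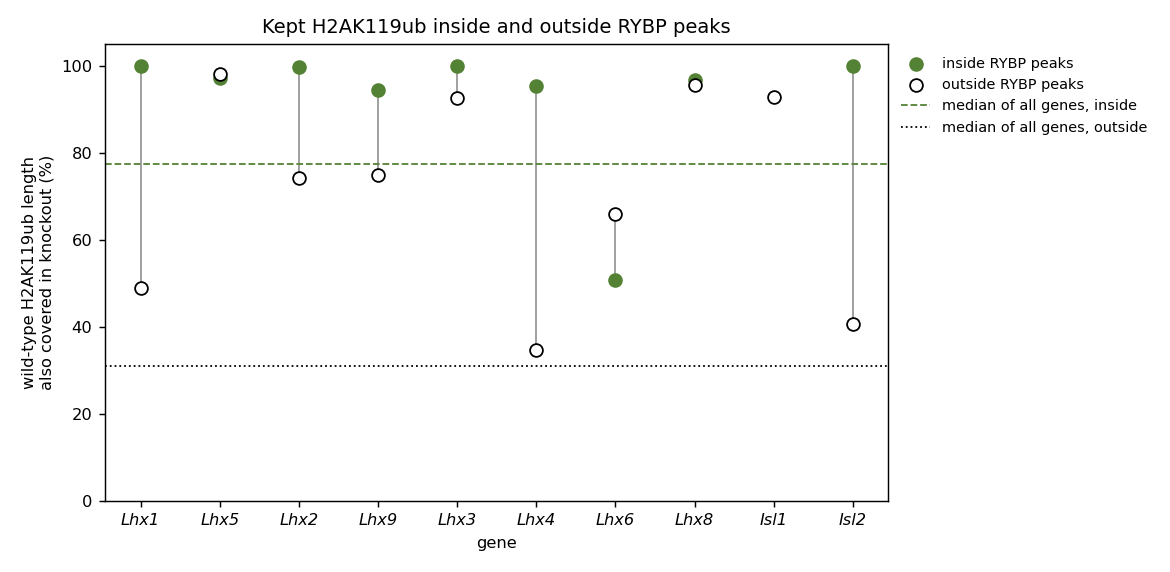
Percent of wild-type H2AK119ub length also covered in the knockout (vertical axis) for each gene (horizontal axis), inside RYBP peaks (green) and outside them (white), with the medians over all protein-coding genes as dashed and dotted lines (77.5% and 30.9%). The green points of 8 genes lie above 90% and that of Lhx6 at 50.7%; Isl1 has no wild-type H2AK119ub inside RYBP and so no green point.

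RefSeq start sites were matched for 9 of the 10 genes, 13 sites in all, and Lhx5 had no entry. RYBP lay on 10 of 13, against 28.4% of the 21045 start sites of protein-coding genes. Wild-type H2AK119ub lay on 9 of 13, against 7.79%, and knockout H2AK119ub on 10 of 13, against 5.90%. All 3 lay on 6 of 13, against 2.67%. No member start lay outside every peak, where 67.5% of all starts did. Starts of 1 gene can share a peak, as those of Lhx6 and Lhx3 did, so the sites are not independent.

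RYBP without wild-type H2AK119ub, as at Isl1, Lhx4 and the second Lhx2 start, was the common state elsewhere: 5057 of 5986 starts in RYBP, or 84.5%, had it, against 3 of 10 member starts. H2AK119ub without RYBP, as at both Lhx3 starts, was found at 43.4% of all starts in wild-type H2AK119ub and at 2 of 9 member starts. The 13 runs of 250 bases held 4 to 33 CG dinucleotides, with a median of 16 against 10 over all starts. The motif CG reads the same on both strands, and 93.6% of all runs held at least 1. Over all starts the median was 19 where RYBP lay on the start and 5 where it did not. The 10 member starts with RYBP had a median of 15 and the 3 without it 22. Those 3 came from 2 genes, too few to set against the pattern over all starts.

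**Figure D5:**
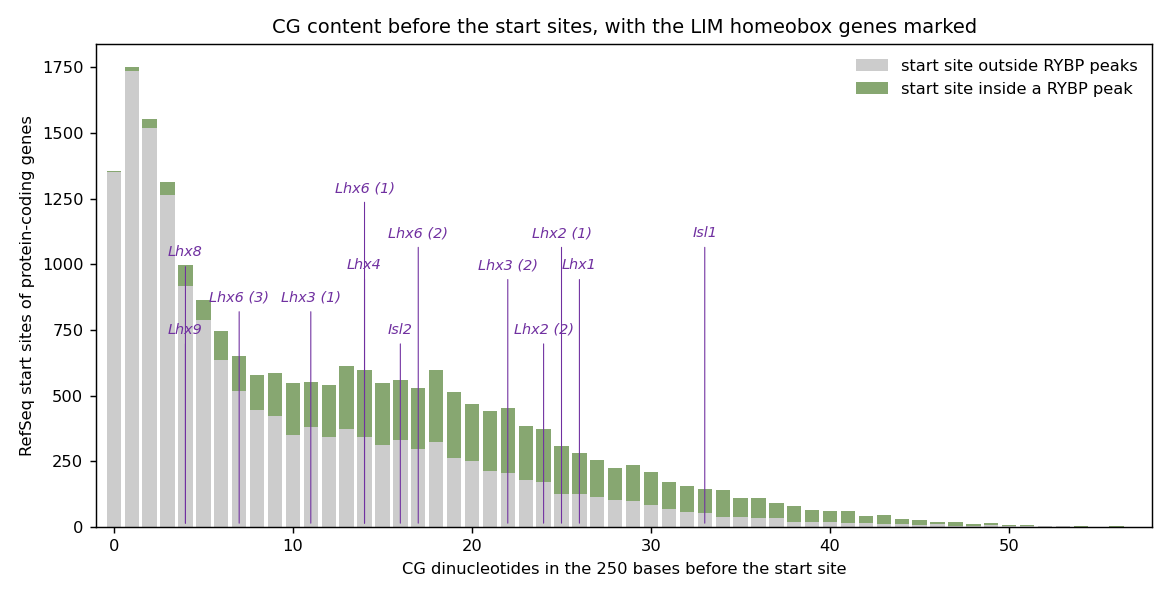
Number of RefSeq start sites of protein-coding genes (vertical axis) by the number of CG dinucleotides in the 250 bases before the start (horizontal axis), stacked by whether the start lay in a RYBP peak (green) or not (grey). Purple lines mark the 13 starts of the LIM homeobox genes, numbered from the 5′ end where a gene has several; they run from 4 at Lhx8 and Lhx9 to 33 at Isl1.

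Other homeobox and paired-box families were set beside the LIM genes. All 6 Dlx genes were marked in both genotypes with a median ratio of 0.90, 8 of 9 Pax genes with 0.74, and 11 of 12 Nkx2, Nkx3 and Nkx6 genes with 0.74. Covered length was lower by at least 1.5 times at 0 Dlx, 2 Pax and 4 Nkx genes, against 1 LIM homeobox gene. The share of wild-type length kept was 88.9% for Dlx, 64.9% for Pax and 75.2% for Nkx, against 81.6%. The LIM genes thus lay between Dlx and Nkx on this measure, and no test of these differences was possible.

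Genes that work with LIM homeobox proteins were less uniform. The other LIM homeobox genes, Lmx1a and Lmx1b, were both marked in all 3 libraries, and Lmx1b had 76122 bp of wild-type and 58898 bp of knockout H2AK119ub. Of the LIM-only genes, whose products compete for Ldb1, 3 of 4 were marked in both genotypes and 2 were lower by at least 1.5 times: Lmo1 had 7766 bp (wild type) and 4303 bp (knockout), and, in the same order, Lmo2 5277 and 1966 bp, and Lmo4 4877 and 4192 bp. Of 6 cofactor genes, wild-type H2AK119ub lay at 3 and knockout H2AK119ub at 1. Ssbp4 had 7476 and 4439 bp, Ssbp3 1488 bp in the wild type alone, and Ldb1 715 bp in the wild type alone. Of 14 partner transcription factor genes, 12 were marked in the wild type and 11 in both, with a median ratio of 0.93. Of those 11, 2 were lower by at least 1.5 times. Pitx1, a hindlimb and pituitary factor, had 15132 and 15072 bp, and Nkx2-5, a heart factor, 9199 and 9630 bp.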

How the data were processed

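H2AK119ub in wild-type and DDX5 knockout cells and RYBP in wild-type cells were analysed, grouped by sample title; the 2 inputs were not analysed here. The submitters' processing notes name Bowtie2 2.2.5, MACS 1.4 and mm10. Not given in the sources used here is which step each tool served, nor the threshold or any use of inputs. The authors deposited 1 peak list per library with a score column of 0 throughout, so only positions were used.

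Gene bodies were read from RefSeq's GRCm38.p6 table (the assembly of mm10), which gives no exons, and starts and sequences from its promoter table. Covered length is the number of base pairs of a window under peaks, and ratios past 1.5 in either direction were called. Python 3.11.15 and pandas 2.3.3 were used, and the computation was tested on simulated peaks. Wilson intervals treat peaks as independent. Every member was named, and up to 3 genes per related list by wild-type covered length, of which 1 is not reported here; noncoding neighbours were named after values were seen. The members and lists were chosen with earlier results of these data known. Alternatives were no flank, 5 kb flanks, 2 kb around starts, a peak minimum of 1 kb, as many H2AK119ub peaks in both lists (the widest), 50% of the peak inside the window, and merging within 2 kb.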

Additional observations from a re-analysis of the deposited data

How the results depend on the processing

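All 10 members stayed marked in both genotypes under 6 of 7 alternatives; within 2 kb of the starts, where 9 genes could be measured, 8 did. The number lower by 1.5 times was 0 around the starts and 0 with merged peaks in place of 1, and the number higher was 1 under a peak minimum of 1 kb and 1 when both lists were set to the same number of peaks, in place of 0; that gene was Isl1. The number with more length in the knockout was 1 under the minimum and 5 with merged peaks. Lhx3 and Lhx6 stayed below 1 in 7 alternatives each, and Isl1 above 1 in the 6 that gave a value. The wild-type length kept was 83.5% with no flank, 79.6% with 5 kb, 91.1% around the starts, 81.9% with equal numbers, 81.9% with 50% of the peak inside and 87.2% with merged peaks. RYBP inside the mark was 90.4%, 87.5% and 82.1% for these 3 windows and 96.8% with merged peaks. The share kept inside RYBP was 92.5% with no flank, 94.4% around the starts and 91.4% with peaks of at least 1 kb, and outside it 74.4%, 69.6% and 85.7% for the 3 windows, 71.8% under that minimum and 80.8% with merged peaks. Around the starts 4 members kept more inside RYBP than outside, where RYBP overlapped the mark at 7. The shares were equal at Lhx1, Lhx8 and Isl2, where all of the mark near the start was kept. Merging fills gaps between peaks by construction; for the other settings the cause was not tested. No paired analysis was possible because each group holds a single library without a replicate number.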
